A study of Homo sapiens with 10 samples.

Results

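The comparison described here set the 2 arrays titled PC-3 L+G against the 2 arrays titled PC-3 Gefitinib, which are 4 of the 10 arrays of the series. PC-3 is a human prostate cancer cell line that grows without androgen. By its label, each of these samples is total RNA of PC-3 cells kept for 24 h with 60 µM gefitinib, and the L+G samples also received 60 µM luteolin. Both drugs were dissolved in DMSO, so all 4 cultures also carried the solvent. The other 6 arrays (2 of untreated cells at 0 h, 2 of cells kept for 24 h with DMSO and 2 labelled as 24 h with 60 µM luteolin) served to estimate the spread and as a reference. The labels call the 2 samples of a group biological replicates and do not say whether they were separate cultures. The p-values and standard errors (SE) pool the spread between replicates over all 5 groups, and measure the spread between these samples only.

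The names of the scanner files disagree with the labels. The files of the arrays labelled L+G carry the name Lu+, and the files of the arrays labelled gefitinib carry the name L+G. By file name the comparison is therefore luteolin against both drugs. The deposited value table equalled the scanner files of the same samples in 45015 of 45015 spots, and so carries the same pairing of labels and signal. The study's own order of the treatments for LEFTY1, with luteolin alone far above the others, follows the file names and not the labels. Each direction below is therefore that of the labels, and by the study's own assignment the L+G-labelled arrays are likely those of luteolin alone and the gefitinib-labelled arrays those of both drugs. Groups are called below by their labels, as the gefitinib-labelled and the L+G-labelled arrays.

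Gefitinib blocks the tyrosine kinase of the epidermal growth factor receptor (EGFR), which drives the RAS, ERK and PI3K pathways. Luteolin is a plant flavonoid that inhibits several kinases. The study asked what either drug and their combination do to these cells, and names cyclin G-associated kinase (GAK), a kinase of clathrin-mediated traffic. In cells, ERK output is read from genes of its own feedback such as DUSP6, PI3K and AKT hold down the genes of FOXO factors, and cell division is read from E2F targets in S phase and from genes with a cell cycle element (CHR) in G2 and mitosis.

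Each value below is a level on the log2 scale, the processed signal of a probe over the 75th percentile of all probes on that array, or a difference of such levels, L+G label minus gefitinib label. Levels of different probes are not set against each other. A gene was called when limma's adjusted p was under 0.05 and the difference was at least 1 in size, a 2-fold difference. Of 41000 probes, 28774 passed the background filter, which asked for signal well above background in both replicates of any group, and they named 19718 genes. That percentile stood at signals of 650.7 and 628.4 on the gefitinib-labelled arrays and 864.6 and 539.8 on the L+G-labelled arrays, below the 1041 to 1402 of the other 6. From 63.4% to 69.8% of probes were well above background on the 4 arrays, and 0 were saturated. Replicates lay further apart here than elsewhere, with a median SD over genes of 0.18 with the gefitinib label and 0.26 with the L+G label against 0.0886 with DMSO. The SEs and p-values pool all 5 groups, so groups with closer replicates, such as DMSO, also set them.

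With the L+G label 3394 genes (17.2% of those tested) were higher and 1924 genes (9.76%) were lower than with the gefitinib label. The calls were therefore 63.8% higher, and this split rests on the scaling: with each array scaled to its median, 2881 genes were higher and 2815 lower, a share of 50.6%. The median difference of all genes was -0.13, and -0.29 with median scaling, so that small differences of a whole list are read beside this value. At the adjusted p alone 4826 genes were higher and 4511 lower. The 2 groups did not overlap for 13754 genes (69.8%). On the signal as measured, 210 called genes were at least 8-fold higher with the L+G label and 16 at least 8-fold lower. These counts include genes whose dimmer group was below background on both arrays, where the fold rests on signal near background. Such genes were more frequent among the higher calls (813) than among the lower calls (136). Calls of higher genes were more frequent among dim probes, at 24.1% in the lowest of 4 equal bins of mean level and 6.94% in the highest, while calls of lower genes made up 7.97% and 9.66% of the same bins.

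**Figure D1:**
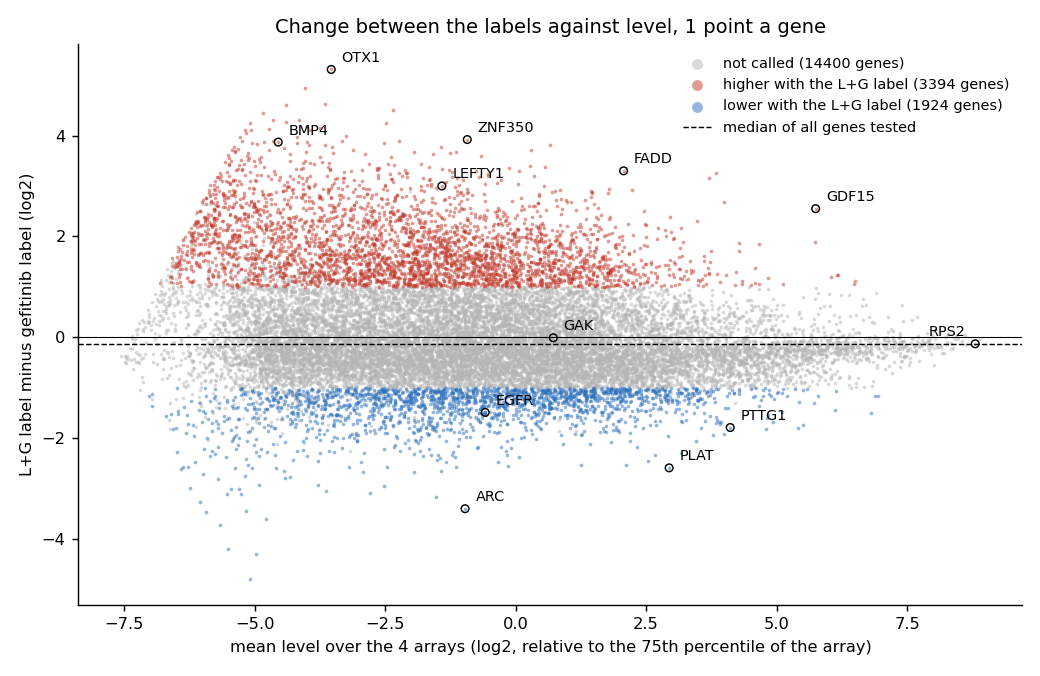
Difference between the labels (L+G minus gefitinib, log2) against the mean level over the 4 arrays (log2, over the array's 75th percentile), 1 point a gene, with the 3394 higher genes in red, the 1924 lower genes in blue and the median of all genes as a dashed line. Differences above 2 lie mostly among genes of low and middle level, and the brightest genes, such as RPS2, lie close to the median.

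Slides held the groups unevenly. The first replicate of both labels lay on slide 2, the gefitinib-labelled replicate 2 on slide 1 and the L+G-labelled replicate 2 on slide 3. Within slide 2 the only difference is that of 1 array and 1 array, and all 5318 of the 5318 called genes had the same sign there. These arrays also made the calls, so the shared sign was close to fixed in advance and is no check on the slides. With slide as a block, 3170 genes were higher and 1882 lower, of which 3017 and 1659 were also called without the block.

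The cells carried the marks of the line. The epithelial genes KRT8, KRT18, KRT19, EPCAM and CDH1 were well above background on all 10 arrays. KLK3, which encodes prostate-specific antigen, was also well above background on all 10, at 4.63 and 5.14 with the gefitinib label and 4.02 and 4.68 with the L+G label. Of 13 markers of leukocytes, endothelium and fibroblasts, 4 (PTPRC, LYZ and DCN among them) were above background on no array and 3 on all of them, 6 could be tested and 1 was called, the collagen COL3A1 (1.36, adjusted p = 0.0189). Their summed signal, in units of the 75th percentile of the array, was 0.465 to 0.564 with the gefitinib label and 0.694 to 0.794 with the L+G label. COL1A2 and VWF, which were not tested, were each high on 1 L+G-labelled array only, and without them the sums were 0.433 to 0.55 and 0.536 to 0.6. The part of other cells in the differences was not tested.

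The genes with the largest rise among those above background on all 4 arrays formed no list chosen for this work. ZNF350, a KRAB zinc finger repressor, had levels of -2.87 and -2.90 on the gefitinib-labelled arrays and 0.94 and 1.12 on the L+G-labelled arrays. It was 3.92 ± 0.18 (SE, n = 2 a group) higher with the L+G label, a 15.1-fold difference (adjusted p = 2.98e-05). The arrays of a group lay close together and the groups far apart. Relative to DMSO the same gene differed by -2.69 with the gefitinib label and by 1.23 with the L+G label.

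The other 9 of these genes differed by 3.43 to 3.89. They were BRF2, a subunit of the RNA polymerase III initiation factor, the pseudouridine synthase RPUSD2, the inner nuclear membrane protein LEMD3, ANGPTL4, an inhibitor of lipoprotein lipase, the phosphatase PUDP, the prostaglandin E2 receptor PTGER4, the phosphatidylcholine carrier PCTP, FAM200A and WDCP. LEMD3 had levels of -2.85 and -3.80 with the gefitinib label and 0.71 and 0.20 with the L+G label, in the latter 0.23 above DMSO. ANGPTL4 stood at -1.05 and -2.06 with the gefitinib label and at 2.53 and 1.78 with the L+G label. With the L+G label 6 of the 10 lay within 1 of DMSO, and with the gefitinib label all 10 lay under it. ANGPTL4 differed from DMSO by 2.66 with the L+G label and by -1.05 with the gefitinib label, the smallest of the 10 in the latter, while BRF2, FAM200A and ZNF350 were 1.20, 1.11 and 1.23 above DMSO with the L+G label.

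**Figure D2:**
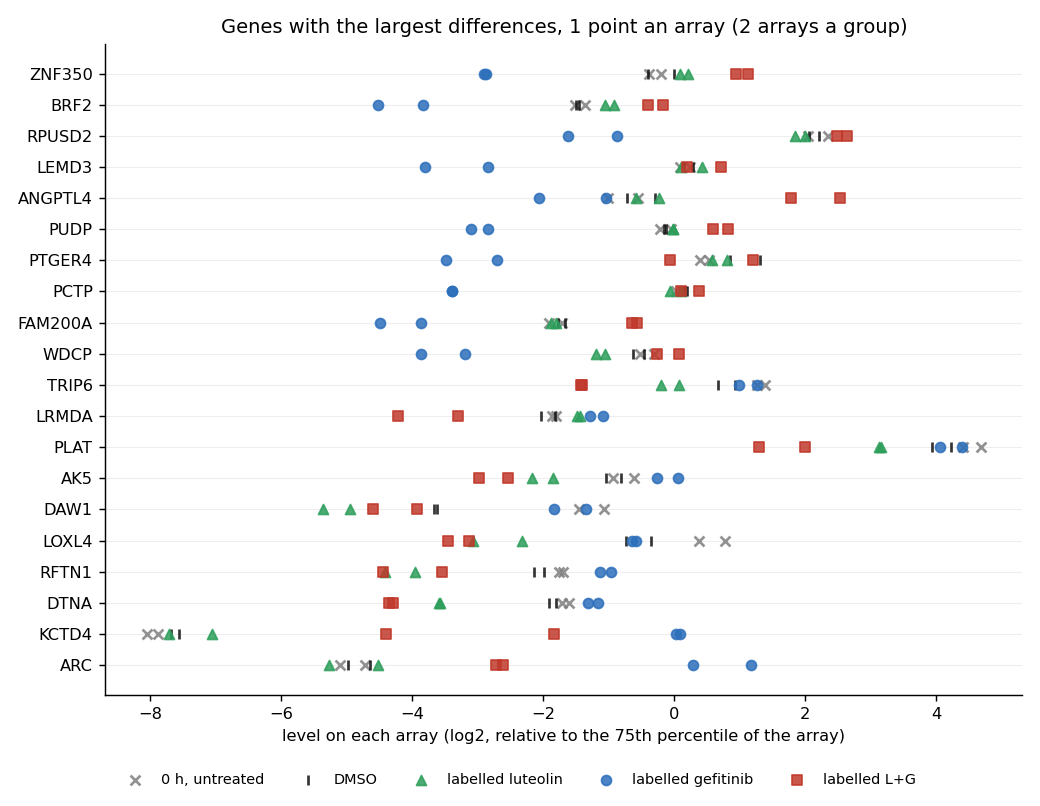
Levels (log2, over the array's 75th percentile) of the 10 genes that rose most and the 10 that fell most on each of the 10 arrays, 1 point an array. Gefitinib-labelled arrays (blue circles) and L+G-labelled arrays (red squares) do not overlap for any of the 20, as the choice of genes requires, and for 6 of the 10 risen genes the mean of the red squares lies within 1 of DMSO (black bars).

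The largest fall was that of ARC, an immediate early gene of synaptic plasticity, which is also induced in other cells. ARC had levels of 1.17 and 0.29 on the gefitinib-labelled arrays and -2.62 and -2.72 on the L+G-labelled arrays. The difference was -3.40 ± 0.34 (SE), 10.5-fold (adjusted p = 0.000183). That the groups did not overlap was a condition for the choice of these genes. KCTD4, a protein with a tetramerisation domain, stood at 0.09 and 0.02 against -4.40 and -1.83, so that the L+G-labelled arrays differed more from each other than in the other genes of this set. ARC was above DMSO with either label, by 5.55 and 2.15, and KCTD4 was not well above background with DMSO. The other 8 were DTNA of the dystrophin complex, the raft protein RFTN1, the lysyl oxidase LOXL4, the dynein assembly factor DAW1, the adenylate kinase AK5, the tissue plasminogen activator PLAT, LRMDA and the LIM protein TRIP6. Their differences ran from -2.55 to -3.09. Other probes of DTNA (-1.31 and -1.51) and of LOXL4 (-1.65) were also lower, but by less than the probes used.

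Some genes were measured in one of the groups only. OTX1, a homeobox transcription factor of the head, had levels of -0.70 and -1.06 with the L+G label and was not well above background on either gefitinib-labelled array, which makes it at least 18-fold higher with the L+G label (adjusted p = 0.000106). This is the brighter of 2 probes of OTX1, and the other differed by 0.56. A lower limit takes for each dim array whichever is higher, its own signal or the dimmest signal called well above background there. FAM107A, an actin-bundling protein, was at least 8.21-fold lower with the L+G label. POTED was at least 6.08-fold lower, but it belongs to a family of near-identical copies, so the signal may come from several. Of the called genes, 813 of the higher ones were below background on both gefitinib-labelled arrays and 136 of the lower ones on both L+G-labelled arrays.

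The genes the study names for these cells were given next. GAK had levels of 0.86 and 0.59 with the gefitinib label and 0.58 and 0.85 with the L+G label. The groups overlapped fully, and the difference was -0.01 with a 95% interval of -0.41 to 0.39 (adjusted p = 0.966). The sign of this value turned with quantile normalization, with the median over its probes and without the first replicate of either label. EGFR, the target of gefitinib, had levels of 0.13 and 0.19 against -1.09 and -1.57 and was 2.81-fold lower with the L+G label (difference -1.49 ± 0.22, SE, adjusted p = 0.000959). LEFTY1, an inhibitor of the Nodal ligand, had levels of -2.08 and -3.75 against -0.09 and 0.26, and was 3.00 ± 0.55 (SE) higher with the L+G label (adjusted p = 0.00295). The gefitinib-labelled replicates of LEFTY1 lay further apart than those of GAK and EGFR. With DMSO it was not well above background, and with the luteolin label it had levels of -4.46 and -3.17, so that the highest levels were those of the arrays labelled L+G and named Lu+. LEFTY2 and NODAL were not well above background on both arrays of any group and were not tested.

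Lists of genes of known roles came next. A list is described by its members called and its median difference, beside the 17.2% higher, the 9.76% lower and the median of -0.13 of all genes. The DMSO comparisons of both labels share the DMSO arrays and the arrays compared here, and only their own values are given. Against DMSO, 15.6% of genes were higher and 14.3% lower with the gefitinib label, and 12.1% were higher and 7.7% lower with the L+G label.

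**Figure D3:**
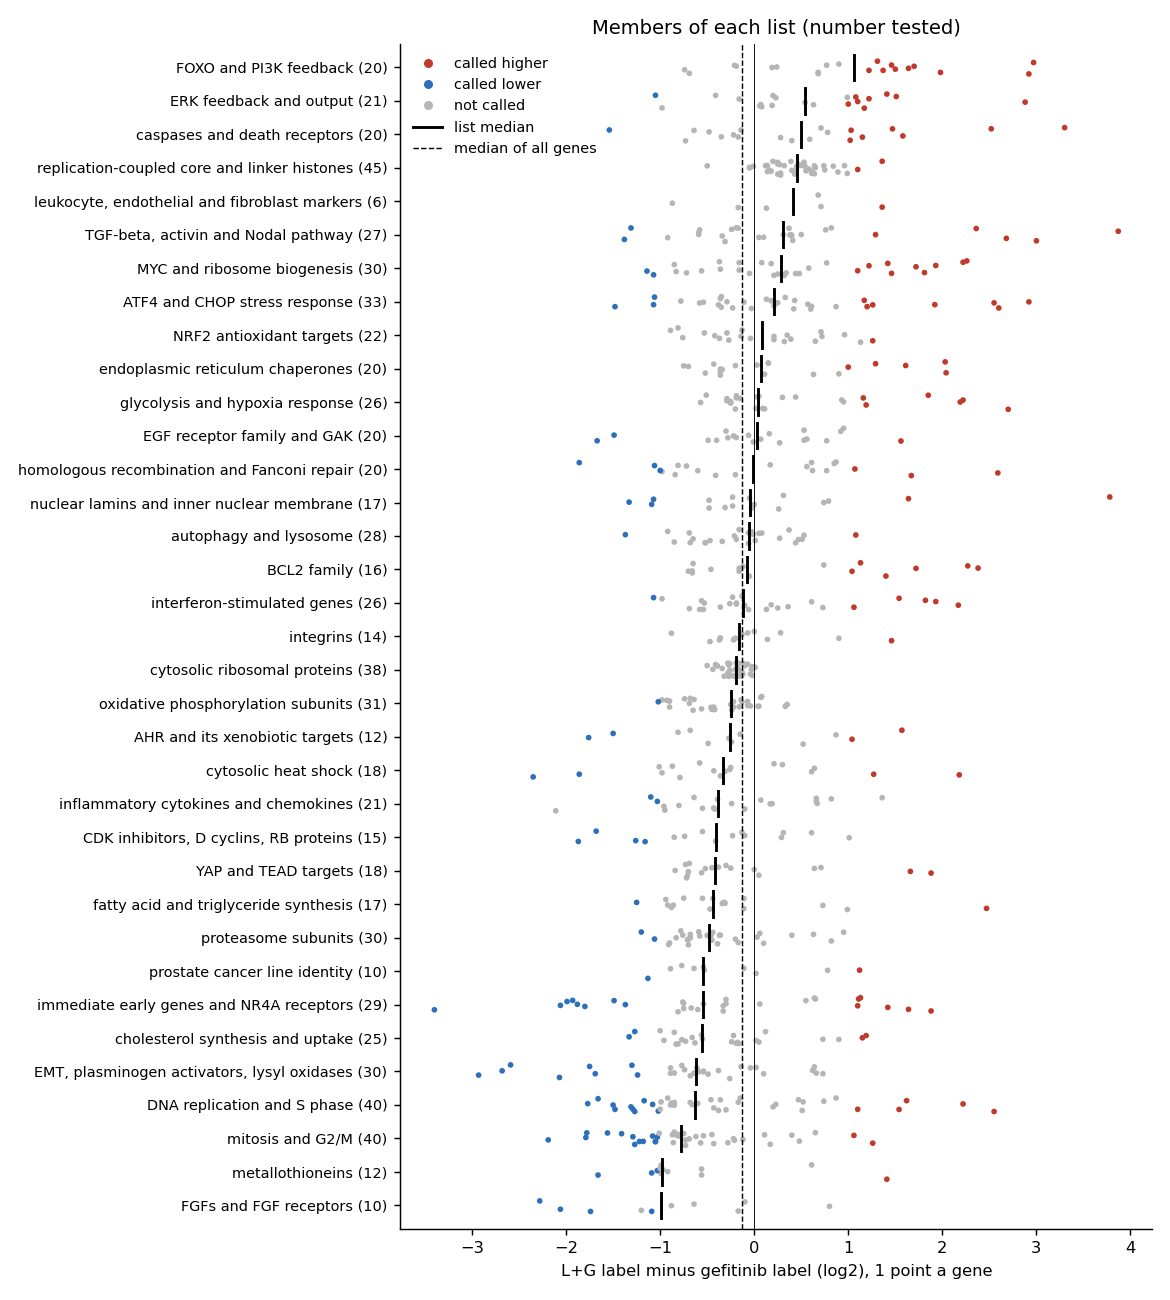
Differences (L+G label minus gefitinib label, log2) of the tested members of 35 gene lists, 1 point a gene, coloured by call, with the median of each list as a black bar and that of all genes as a dashed line. The list of FOXO and PI3K feedback genes stands at the top with a median of 1.06, and FGFs and metallothioneins stand at the bottom with -0.99 and -0.98.

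Of 40 genes of mitosis and G2/M, 13 (32.5%) were lower with the L+G label, 2 were higher and 25 were not called, with a median of -0.78. PLK1, the kinase that drives entry into and exit from mitosis, had levels of 2.35 and 2.77 against 1.08 and 0.93, a difference of -1.56 ± 0.23 (SE, adjusted p = 0.00105). Securin, PTTG1, fell from 4.96 and 5.05 to 3.33 and 3.1. The groups of both genes were well apart. The kinetochore gene SPC25 differed by -2.19, the kinesin KIF20A by -1.78 and the hyaluronan receptor HMMR, a spindle protein, by -1.41. The kinase TTK (1.26) and the cyclin CCNA2 (1.06) were the 2 higher members. The count of lower members was 8 with normexp background correction, 6 without gefitinib-labelled replicate 2 and 5 without L+G-labelled replicate 2, and HMMR was not called without either of these. Neither higher member was called without the first replicate of either label. Median levels of the list lay under DMSO with both labels, by -1.12 with the gefitinib label and -1.74 with the L+G label.

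The CHR is the letters TTTGAA, read on either strand, and was looked for in the RefSeq promoter windows (250 bases before to 50 after the start of each gene, build GRCh38.p14). It occurred in 25 of 34 mitotic genes with a window (73.5%), against 15.4% of all 27305 windows. A run of 6 letters is short and its presence is no sign that a factor binds. The median difference was -0.75 in mitotic genes with the letters and -1.01 in those without. The bases before the start of 4 lower genes are shown since the letters lie within 65 bases of the start there. The stretches are chr15:59105046-59105145 (CCNB2, plus strand), chr16:23678789-23678888 (PLK1, plus strand), chr5:163460532-163460631 (HMMR, plus strand) and chr1:43358881-43358980 (CDC20, plus strand), each 5′ to 3′ and ending at the last base before the start, with the CHR in capitals (2 adjoining copies in HMMR).
CCNB2: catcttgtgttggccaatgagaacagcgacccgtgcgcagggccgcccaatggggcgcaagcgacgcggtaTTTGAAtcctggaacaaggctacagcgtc
PLK1: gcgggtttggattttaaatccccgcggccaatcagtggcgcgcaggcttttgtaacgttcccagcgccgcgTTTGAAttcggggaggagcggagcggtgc
HMMR: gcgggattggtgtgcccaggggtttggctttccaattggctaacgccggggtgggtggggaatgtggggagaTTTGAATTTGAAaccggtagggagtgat
CDC20: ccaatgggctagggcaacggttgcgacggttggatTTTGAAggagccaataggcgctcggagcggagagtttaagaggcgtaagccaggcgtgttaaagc
CCNB2, a mitotic cyclin, differed by -1.27 (adjusted p = 0.0161), and CDC20, an activator of the anaphase-promoting complex, by -1.08 (adjusted p = 0.00167).

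Genes of DNA replication moved both ways. Of 40, 10 (25%) were lower and 5 (12.5%) were higher, with a median of -0.63, and 18 were lower with median scaling. CDC45 of the replicative helicase had levels of 4.06 and 3.92 against 2.36 and 2.30, and the primase PRIM1 had 1.07 and 1.05 against -0.22 and -1.20. Both were lower with the L+G label, by -1.66 and -1.77. The flap endonuclease FEN1, which matures Okazaki fragments, went the other way, from -0.36 and -0.41 to 2.11 and 2.22 (2.55 ± 0.17, SE, adjusted p = 5.06e-05). The cyclin CCNE2, below background on both gefitinib-labelled arrays, was at least 3.48-fold higher.

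The E2F element was looked for as TTTGGCGC and as TTTCCCGC on both strands. Of 35 replication genes with a window, 8 (22.9%) held the former and 11 (31.4%) the latter, against 0.659% and 1.66% of all windows. Among windows of tested genes the shares were 1.07% and 2.53%. They were 1.24% and 2.57% for genes called lower and 1.26% and 2.94% for genes called higher. E2F1 and GINS2, both lower, and E2F2, whose probes went opposite ways, all hold an E2F element within 42 bases of the start. The stretches are chr20:33686386-33686485 (E2F1), chr16:85688955-85689054 (GINS2) and chr1:23531234-23531333 (E2F2), all on the minus strand of GRCh38.p14 and ending at the base before the start, with the element in capitals (on the reverse strand in GINS2).
E2F1: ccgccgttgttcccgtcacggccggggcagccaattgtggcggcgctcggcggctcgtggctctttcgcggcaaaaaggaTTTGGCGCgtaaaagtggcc
GINS2: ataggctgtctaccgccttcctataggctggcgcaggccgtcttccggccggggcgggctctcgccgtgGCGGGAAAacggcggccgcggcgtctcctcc
E2F2: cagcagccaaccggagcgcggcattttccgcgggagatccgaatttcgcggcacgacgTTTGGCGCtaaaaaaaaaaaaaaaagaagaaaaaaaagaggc
The transcription factor E2F1 had levels of 2.14 and 2.03 against 0.61 and 1.22 (-1.17), the GINS subunit GINS2 2.36 and 2.50 against 1.66 and 1.17 (-1.02), and the transcription factor E2F2 -1.96 and -2.36 against -0.39 and -0.69 (1.62). The E2F2 value is that of its brighter probe, the other probe differed by -0.91 (adjusted p = 0.0517), and the direction of the gene is not settled by them.

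Of 20 genes of homologous recombination and the Fanconi pathway, 3 were higher and 3 lower, with a median of -0.01. PALB2, which brings BRCA2 to breaks, was 2.59 higher, and the translocase FANCM 1.67 higher. RAD51AP1, which promotes strand exchange, was lower (-1.86). Leaving out L+G-labelled replicate 2 gave 6 higher and leaving out gefitinib-labelled replicate 2 gave 5. Of 45 replication-coupled histones, 41 had a difference above 0 with a median of 0.45, and 2 were called, the H4 genes H4C5 (1.36) and H4C4 (1.10). Many histone genes are near-identical, so that their probes may not be told apart. Of 17 genes of the lamina and inner nuclear membrane, 2 were higher (LEMD3 and the lamin LMNB1, 1.64) and 3 lower (SYNE1, the lamin LMNB2 and TMPO), of which 0 were called lower with normexp. A second probe of SYNE1 differed by 0.10, against -1.33 for the probe used.

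Cell cycle inhibitors and D cyclins had 4 of 15 lower (26.7%) and 0 higher. CDKN1C, the inhibitor p57, had levels of 2.61 and 2.71 against 0.82 and 0.77 (-1.87 ± 0.25, SE, adjusted p = 0.000617). Its level with the L+G label differed from DMSO by 0.01, while with the gefitinib label it was 1.88 above. The phosphatase CDKN3 (-1.68), the cyclin CCND3 (-1.26) and the kinase CDK4 (-1.16) were the others. CDK4 was no longer called with quantile normalization or without L+G-labelled replicate 1.

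Genes of apoptosis were mostly higher where they were called. BCL2 family proteins govern the mitochondrial outer membrane, and 6 of 16 (37.5%) were higher and 0 lower, although the median of the list was -0.08. The BH3-only gene BCL2L11 (BIM) had levels of -1.82 and -2.11 against 0.48 and 0.36 (2.38 ± 0.16, SE, adjusted p = 5.28e-05), and the effector BAK1 -1.21 and -1.62 against 1.04 and 0.67 (2.27). Survival members were among them too, BCL2L1 (1.72) and MCL1 (1.04). BCL2L11 has 5 kept probes, all higher with the L+G label but by different amounts. With the median level over them on each array the difference was 0.84. Of the family, 3 were called without gefitinib-labelled replicate 2.

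Of 20 caspases and death receptor genes, 7 (35.0%) were higher and 1 was lower, with a median of 0.50. FADD, the adaptor of death receptors, stood at 0.67 and 0.17 on the gefitinib-labelled arrays and at 3.94 and 3.49 on the L+G-labelled arrays, a 9.82-fold difference (3.30 ± 0.22, SE, adjusted p = 4.77e-05). The apoptosome gene APAF1 was 1.58 higher. For FADD and BAK1 the values relative to DMSO were -3.64 and -3.03 with the gefitinib label and -0.34 and -0.76 with the L+G label. The lower member was CFLAR, an inhibitor of caspase-8 (-1.54), whose probes disagree (-0.87 over their median). Without L+G-labelled replicate 1, with normexp and with median scaling, 4 were higher.

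The list of FOXO targets and PI3K feedback had the highest median, 1.06. Of 20 genes 10 (50%) were higher and 0 lower. TXNIP, an inhibitor of thioredoxin and of glucose uptake, had levels of 1.37 and 0.18 against 3.69 and 3.70 (2.92 ± 0.39, SE, adjusted p = 0.000615). The sestrin SESN1, below background on both gefitinib-labelled arrays, was at least 4.57-fold higher. The kinase PDK4 (1.98), the repressor BCL6 (1.70), FOXO1 (1.64), FOXO3 (1.37), the insulin receptor INSR (1.22) and the PI3K subunit PIK3R1 (1.46) were also higher. The median of the list relative to DMSO was -0.51 with the gefitinib label and 0.42 with the L+G label, and on single arrays it was -0.52 and -0.68 against 0.64 and 0.17. Leaving out any of the 4 arrays kept 8 to 11 of its members higher.

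ERK output genes were higher in 8 of 21 (38.1%) and lower in 1, with a median of 0.54. DUSP6, the phosphatase that ERK induces and that removes its phosphate, had levels of 0.25 and -0.21 against 3.28 and 2.53 (2.88 ± 0.26, SE, adjusted p = 0.000119), beside 3.90 and 3.72 with DMSO. The sprouty SPRY1 (1.41), DUSP4 (1.17) and MYC (1.22) were higher, and the ETS factor ETV4 was lower (-1.05). The MYC probes disagree, with 0.43 over their median, and SPRY1 was no longer called without gefitinib-labelled replicate 2 or L+G-labelled replicate 1. Higher members were 4 without gefitinib-labelled replicate 2 and 5 without either L+G-labelled array.

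Immediate early genes split. Of 29, 8 (27.6%) were lower and 6 (20.7%) higher, with a median of -0.54. All 3 NR4A orphan receptors were lower, NR4A1 by -1.37, NR4A2 by -1.93 and NR4A3 by -1.88. NR4A3 had levels of -0.51 and -1.56 against -2.88 and -2.95. The RAS relative RASD1 went from 3.26 and 3.20 to 1.42 and 0.91 (-2.06), and KLF2 (-1.99), KLF6 (-1.80) and FOS (-1.49) were lower as well, although a second KLF2 probe differed by -0.22. IER2 (1.88), EGR2 (at least 1.37-fold, above background on 1 L+G-labelled array only), KLF4 (1.42), ZFP36 and BTG2 were higher. The replicates of many of these genes were far apart: 3 were lower without gefitinib-labelled replicate 1, 5 without L+G-labelled replicate 1, and 2 and 1 were higher without gefitinib-labelled replicate 2 and L+G-labelled replicate 1. The cyclic AMP element TGACGTCA was found in 2 of 24 windows (8.33%, against 1.98% of all and 3.11% of those of tested genes).

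Growth factor and receptor genes beside EGFR were mostly not called. Of 20 genes of the EGF family, the ligand BTC was lower (-1.67) and LRIG3, a leucine-rich repeat protein, was at least 2.08-fold higher, being below background on both gefitinib-labelled arrays and above it on 1 L+G-labelled array. LRIG3 was no longer called with normexp, without gefitinib-labelled replicate 2 or without L+G-labelled replicate 1, which left 0 of the list higher. Of 10 FGF genes tested, 4 (40.0%) were lower and 0 higher, with a median of -0.99. FGF18 had levels of 0.29 and -0.40 against -3.06 and -1.60 (-2.28), FGF13 -0.81 and -0.95 against -3.42 and -2.46 (-2.06), and FGF1 -1.42 and -1.52 against -3.69 and -2.74 (-1.74). FGF18 was above DMSO with either label, by 5.35 and 3.07, and was no longer called without either first replicate. A second FGF18 probe differed by -1.23 and was not called (limma adjusted p = 0.0789).

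The TGF-beta and Nodal list had 5 of 27 higher and 2 lower, with a median of 0.31. BMP4, a ligand, was at least 5.42-fold higher, below background on both gefitinib-labelled arrays and at -2.20 and -3.03 on the L+G-labelled arrays, near the -2.44 and -2.73 of DMSO. ID1, a target of BMP signals that blocks differentiation, had levels of 3.24 and 2.08 against 5.23 and 5.44 (2.68 ± 0.36, SE, adjusted p = 0.000682), and ID2 was 1.29 higher. The activin receptor ACVR2A was at least 4-fold higher. The BMP antagonist GREM1 was below background on all 4 arrays, and no fold is given. With normexp 0 of the list were lower, and 1 without gefitinib-labelled replicate 2 or L+G-labelled replicate 1.

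Of 30 genes of the epithelial-mesenchymal state (EMT), plasminogen activation and lysyl oxidation, 8 (26.7%) were lower and 0 higher, with a median of -0.62. The plasminogen activators PLAT and PLAU were both lower. PLAT had levels of 4.40 and 4.06 against 1.30 and 2.0 (-2.59 ± 0.25, SE, adjusted p = 0.000168), and PLAU had 6.53 and 6.21 against 4.84 and 4.41 (-1.75). The lysyl oxidases LOXL4 (-2.68), LOXL3 (-2.07) and LOXL1 (-1.69), which cross-link collagen, the collagenase MMP1 (-1.30) and the EMT factor SNAI2 (-1.24) were also among the 8. PLAT and LOXL4 lay near DMSO with the gefitinib label (0.16 and -0.07) and below it with the L+G label (-2.43 and -2.75). Leaving out any of the 4 arrays kept 6 to 10 of this list lower. The caveolin CAV1 was also lower (-1.13), though not with quantile normalization (-0.76). Of 14 integrins only ITGB3 was called (1.46), and of 18 YAP targets LATS2 (1.88) and AMOTL2 (1.66).

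**Figure D4:**
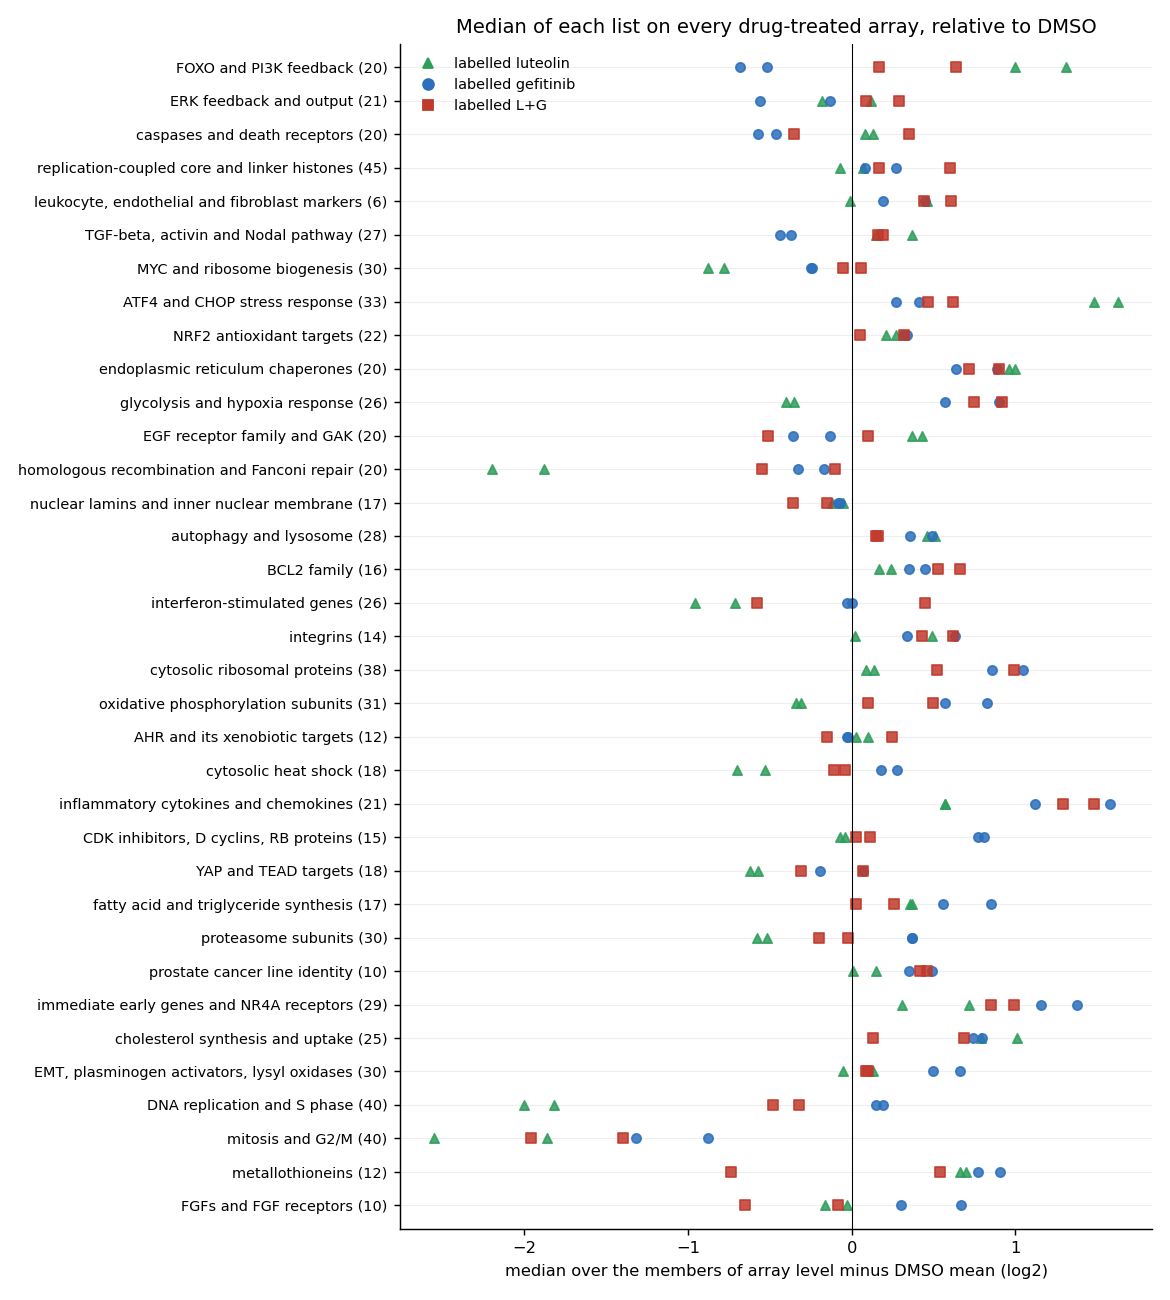
Median over the members of each list of the level on an array minus the mean DMSO level (log2), 1 point a drug-treated array, lists in the order of their difference between the labels. Mitotic genes lie below 0 on all 6 arrays, FOXO and PI3K feedback genes lie below 0 on the gefitinib-labelled arrays only, and the L+G-labelled arrays of the metallothioneins (-0.74 and 0.54) and interferon-stimulated genes (0.45 and -0.58) lie on opposite sides of 0.

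Of 33 genes of the ATF4 and CHOP response to amino acid and endoplasmic reticulum (ER) stress, 7 (21.2%) were higher and 3 (9.09%) lower, near the shares of all genes, with a median of 0.21. GDF15, a stress cytokine, had levels of 4.70 and 4.25 against 6.86 and 7.18 (2.55 ± 0.34, SE, adjusted p = 0.000630), and lay at 4.24 and 4.81 with DMSO. The hormone STC2 went from -0.19 and -1.04 to 2.25 and 2.35 (2.92). The alanyl-tRNA synthetase AARS1 (-1.06) and the tRNA exportin XPOT (-1.48) were lower. The 3 lower members fell to 1 without L+G-labelled replicate 1. The ATF4 element TGATGNAA, on either strand, was in 6 of 28 windows (21.4%) of the list. It was in 3.67% of all windows and 1.69% of those of tested genes, and STC2 and GDF15 had no match in theirs.

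Of 20 ER chaperone and quality control genes, 5 (25%) were higher and 0 lower. XBP1, the factor of the unfolded protein response, had levels of 3.13 and 2.48 against 4.27 and 4.56 (1.61). The ligase SYVN1 (2.03) and the chaperone DNAJB9 (2.04) were higher too. HSPA5, the main chaperone of the ER, was at the threshold (1.00, adjusted p = 0.0348) and lost its call in most alternatives. The count was 3 without gefitinib-labelled replicate 2, without either L+G-labelled array and with slide as a block. In the cytosol 2 of 18 heat shock genes were higher (DNAJB4, 2.18, and DNAJB1, 1.27) and 2 lower (HSPA6 and HSPA4L). HSPA6, a strictly inducible HSP70, had levels of -0.29 and -0.92 against -2.71 and -3.22 (-2.35), near the -3.22 and -3.78 of DMSO in the latter. Without L+G-labelled replicate 2, 5 heat shock genes were lower.

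Glycolysis and hypoxia genes were higher in 6 of 26 (23.1%) and lower in 0, with a median of 0.04. They were the demethylase KDM3A (2.70), the kinases PFKFB4 (2.22) and PFKFB3 (1.16), the glucose carrier SLC2A1 (2.19), ANKRD37 (1.85) and NDRG1 (1.19), which are induced by hypoxia rather than enzymes of the central pathway. SLC2A1 had levels of 1.08 and -0.09 against 2.75 and 2.62. The higher count was 5 to 7 without each of the 4 arrays, and NDRG1 was no longer called without gefitinib-labelled replicate 2 or L+G-labelled replicate 1.

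Metal, xenobiotic and lipid genes differed in few members. Of 12 metallothionein genes, zinc-binding proteins with their factor MTF1 in the same list, 3 were lower and 1 higher, with a median of -0.98. MT1E had levels of 5.66 and 5.50 against 3.80 and 5.16 (-1.09, adjusted p = 0.0415), and the L+G-labelled arrays disagreed. The lower count was 0 without L+G-labelled replicate 1, 9 without L+G-labelled replicate 2, 1 without either gefitinib-labelled array and 7 with slide as a block. Metallothioneins are also near-identical. Of 12 genes of the aryl hydrocarbon receptor, AHR itself (1.57) and its partner ARNT (1.04) were higher and the targets CYP1B1 (-1.76) and CYP1A1 (at least 2.30-fold) lower. A second ARNT probe differed by 0.37, and single alternatives ended the calls of ARNT, CYP1A1 and CYP1B1. The xenobiotic element TNGCGTG was in 4 of 10 windows (5.51% of all and 7.21% of those of tested genes). Of 22 NRF2 targets 1 was called, the cystine carrier SLC7A11 (1.26).

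Of 25 cholesterol genes, 2 were higher, HSD17B7 (1.19) among them, and 2 lower, ACAT2 (-1.33) and PMVK (-1.27), with a median of -0.55. The sterol core TCACCCCA was in 2 of 18 windows (1.47% of all and 1.33% of those of tested genes). Of 17 fatty acid genes the acyltransferase DGAT2 (2.47) was higher and the desaturase FADS1 (-1.25) lower, and both lost the call without L+G-labelled replicate 1. Without L+G-labelled replicate 2, 7 cholesterol and 6 fatty acid genes were lower.

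Ribosome biogenesis genes were higher in 9 of 30 (30%) and lower in 2, with a median of 0.29. PPAN, a factor of the large subunit, had levels of -2.03 and -1.98 against 0.38 and 0.13 (2.26 ± 0.16, SE, adjusted p = 5.8e-05), and the polymerase I and III subunit POLR1C -0.63 and -0.55 against 1.54 and 1.72 (2.22). BYSL (1.93), URB2 (1.81) and NOP16 (1.72), all of nucleolar assembly, were higher, and DKC1 (-1.14) and RRP9 (-1.07) lower. The higher count was 8 to 10 without each of the 4 arrays. The proteins of the ribosome itself were not called in 38 of 38 cases, and 37 of them had a difference of 0 or below, close to the median of all genes. RPS2 had levels of 9.02 and 8.72 against 8.50 and 8.98 (95% interval of the difference -0.63 to 0.37), and the interval for RPS28 was -0.58 to 0.51.

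The remaining lists held few calls. Of 26 interferon-stimulated genes 5 were higher, the 4 IFIT genes (IFIT1 2.17, IFIT2 1.93, IFIT3 1.82 and IFIT5 1.54) and OASL, and 1 was lower. IFIT1 had levels of 1.54 and 1.75 against 4.72 and 2.91, so 1 L+G-labelled array lay above and 1 below the 3.49 and 4.04 of DMSO. The higher count was 3 without the first replicate of either label, and the lower count 5 without L+G-labelled replicate 1. Of 21 cytokine and chemokine genes ICAM1 (-1.10) and TNFAIP3 (-1.03), both NF-kappaB targets, were lower. Relative to DMSO 13 of the 21 were higher with each label, and 1 was lower with the L+G label. TNFAIP3 lay above DMSO by 3.87 with the gefitinib label and by 2.84 with the L+G label, and ICAM1 by 1.17 and 0.07. Of 31 subunits of oxidative phosphorylation NDUFS3 was lower (-1.02), of 30 proteasome subunits PSMC3 (-1.20) and PSMD11 (-1.06) were lower, and of 28 genes of autophagy and the lysosome GLA was lower (-1.37) and ATG2A higher (1.08). The medians of these 3 lists were -0.25, -0.48 and -0.06. Of 10 tested genes of line identity, TMPRSS2 was higher (1.12) and CAV1 lower.

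Symbols that share a start were counted after the values had been seen, and these counts are descriptions. Among 62 families of at least 20 tested genes, the ZNF zinc finger genes had the highest share of higher calls. Of 402 ZNF genes, 239 (59.5%) were higher and 4 (0.995%) lower, with a median of 1.28 and quartiles of 0.54 and 1.98. Many ZNF genes encode C2H2 zinc finger proteins, often with a KRAB domain that recruits repressors. The median level of the family was -1.93 and -2.14 on the gefitinib-labelled arrays and -0.68 and -0.67 on the L+G-labelled arrays, against -1.06 and -1.0 with DMSO. The replicates of a label lay close and the labels apart.

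ZNF684 had levels of -7.01 and -7.11, below background on both gefitinib-labelled arrays, against -2.45 and -2.80. ZNF14 stood at -3.67 and -5.56 against -0.03 and -0.17, and it was above background on 1 gefitinib-labelled array. Of the 337 ZNF genes above background on all 4 arrays, 189 were higher. Zinc finger genes resemble each other, so a probe may take signal from several. The higher count was 156 with normexp, 217 with median scaling, 227 with quantile normalization, 238 with slide as a block and 226 to 240 without each of the 4 arrays. The related ZBTB genes (17 of 37 higher, 45.9%), RNA-binding RBM genes (13 of 33, 39.4%) and subunits of Mediator (MED, 10 of 29, 34.5%) had 0 lower calls, and the 4 lower ZNF calls were 7 without gefitinib-labelled replicate 1 and 2 without L+G-labelled replicate 1 or with normexp.

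Keratins were at the other end. Of 49 KRT genes, the intermediate filaments of epithelia and their pseudogenes, 16 (32.7%) were lower and 0 higher, with a median of -0.86, and only 2 had a difference above 0. KRT7 had levels of 3.18 and 3.07 against 1.36 and 1.57 (-1.66), and KRT34 of -0.28 and 0.07 against -3.03 and -2.11 (-2.47). Most of the 16 were pseudogenes of KRT8, KRT18 and KRT19, which share sequence with their parent genes. None of these parents was called (-0.64, -0.89 and -0.77). The lower genes that are not pseudogenes were KRT7, KRT34, KRT37 and KRT75. The lower count was 9 with normexp, 26 with median scaling, 6 with slide as a block and 8 without L+G-labelled replicate 2.

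**Figure D5:**
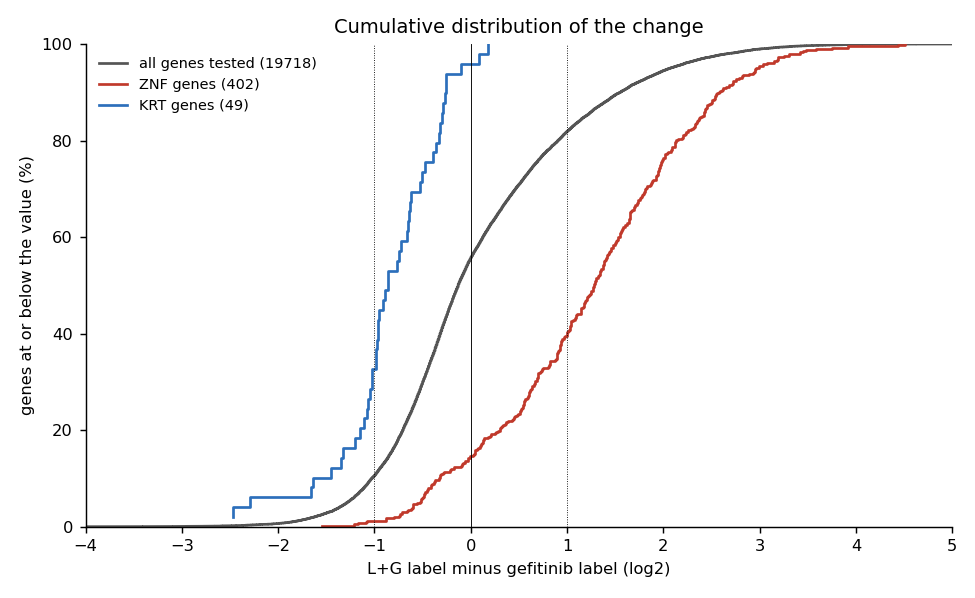
Cumulative share of genes (%) at or below a given difference between the labels (L+G minus gefitinib, log2), for all 19718 genes tested, 402 ZNF genes and 49 KRT genes, with dotted lines at a 2-fold difference. The curve of the ZNF genes lies to the right of that of all genes (median 1.28 against -0.13) and that of the KRT genes to the left (median -0.86).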

How the data were processed

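RNA of the 10 samples was hybridised to single-colour Agilent whole human genome arrays. Per the file headers, the deposited intensities are Feature Extraction (version 10.7.3.1) processed signals on a linear scale, with background subtracted within the array and no normalization between arrays. The paper's methods name another version. The deposited table of values holds the same signal (relative tolerance 1e-04), and 0 of its sample columns were unused.

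Computation ran in R (version 4.3.3) with limma (version 3.58.1) and the data.table package (version 1.17.8). Control and outlier spots were left out, spots of a probe were averaged on log2 and the 75th percentile of the array was subtracted. Probes well above background (at least 50% of their spots) on both arrays of at least 1 group were kept. Of 41000 probes, 24296 were named by accession and 2496 by symbol through the RefSeq table, 11483 kept the name of the file and 2725 without a name were left out of counts of genes. Where several kept probes named 1 gene, the brightest on average stood for it.

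A limma model of 5 groups was fitted to all 10 arrays (5 residual and 3.36 prior degrees of freedom), with Benjamini-Hochberg adjustment over the probes kept. A call needed both an adjusted p below 0.05 and a 2-fold difference (1 on log2). Signal over background, not a count, sets the depth, and 2 arrays a group limit the precision. Genes named were first the 10 that rose most and the 10 that fell most. These had to be called, named through RefSeq, above background on all 4 arrays and without overlap of the groups. Next came the 4 each way with the largest lower limit of the fold (those without a gene symbol are not printed). Up to 5 called members of each list, or else its 2 brightest, and the genes the study names were added. Further members of the lists and the ZNF and KRT genes were named after their values were seen. The lists, the genes and the comparison were chosen with earlier results of these data known. Of the listed genes, 45 were not kept and 6 had no probe. Promoter windows were RefSeq's (GRCh38.p14), searched on both strands. The script was tested on simulated arrays. Alternatives were other background correction, scaling and filters, blocks, fewer arrays, the median over probes and the methods' t-test. Figures used Python 3.11.15 and matplotlib 3.10.9. Some genes are not reported here.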

Additional observations from a re-analysis of the deposited data

How the results depend on the processing

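Beside the 3394 higher and 1924 lower genes, normexp background correction gave 1807 and 1135, of which 1785 and 1097 were among them. Quantile normalization gave 3189 and 2005, median scaling 2881 and 2815, the median over probes 3352 and 1862, and the 4 arrays alone 3169 and 1796. Without a minimum fold 4826 were higher and 4511 lower. The methods' t-test at an unadjusted p under 0.05 gave 1402 and 589, and after Benjamini-Hochberg 1 and 0, where limma had 10866 genes at an unadjusted p under 0.05. Taking treatments from the file names, both drugs against gefitinib is the gefitinib label minus the luteolin label, with 3640 higher and 3574 lower, of which 54 and 36 were among the 3394 and 1924. Leaving out each array gave 3039 to 3593 higher and 1876 to 2209 lower. GAK, RPS2 and RPS28, none of them called, turned sign with quantile normalization (0.02, 0.01 and 0.05), without gefitinib-labelled replicate 1 (0.13, 0.02 and 0.01) and without L+G-labelled replicate 1 (0.13, 0.11 and 0.29), and GAK with the median over probes (0.06). Left-out arrays gave GAK -0.15 to 0.13, RPS2 -0.37 to 0.11 and RPS28 -0.35 to 0.29. The cause was not tested. Of 2567 recomputed values of 151 named genes, 2387 kept direction and call, 170 lost the call and 10 turned sign. Replicate numbers did not pair the 2 groups (r = -0.09 between deviations, 2 numbers), and with the replicate block 3400 were higher and 1944 lower. Family counts, scalings or slide blocks of the lists and the marker sum without COL1A2 and VWF were added after seeing the data. Signal near background limits dim genes, whose folds are lower limits where a group was below background on both arrays.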
